A study of Mus musculus with 6 samples.

Results

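The EGR, NAB and NR4A genes form a small circuit of activation-induced transcription factors and their corepressors, and 8 of them were examined here in Th17 cells. The members were chosen by symbol, namely *Egr1*, *Egr2*, *Egr3*, *Nab1*, *Nab2*, *Nr4a1*, *Nr4a2* and *Nr4a3*, and all 8 were found among the 16244 genes of the deposited table. They were chosen with earlier results of the same genotype comparison known, so the genotype differences of the members are given as a description, with no p-value. The study set out to learn how the RORγt N275D substitution, the mouse counterpart of a human substitution, alters inflammatory Th17 cells. For this, naive CD4+ splenocytes of WT or N275D knockin mice (C57BL/6 background) were stimulated for 3 days with anti-CD3 and anti-CD28 under pathogenic Th17 conditions, for which the design text names IL-6, IL-1β and IL-23 and the methods read as if TGF-β, anti-IL-4 and anti-IFN-γ were also present, and each genotype gave 3 RNA-seq libraries. The same receptor stimulus, itself the classical inducer of these genes, is described for both genotypes. The signal that the cells received from it was not tested. The methods describe young adult mice of both sexes in general, without an age for these cultures, and neither the zygosity of the knockin donors nor whether the WT donors were their littermates is stated for them. In the methods the WT mice were bought, listed as C57BL/6NJ, and the knockin mice came from another laboratory. If the WT donors were those bought mice, source and genotype cannot be told apart. The labels give spleen as the tissue and do not say whether the 3 libraries of a genotype came from separate mice or cultures, so the p-values below measure only the spread between these libraries.

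EGR1, EGR2 and EGR3 are zinc-finger factors that are made soon after T cell receptor engagement. The ERK cascade, which activates the serum response factor complex, is a route to their induction but not the only one. EGR1 drives activation genes such as *Il2* and *Tnf*, whereas EGR2 and EGR3 are known for restraining T cells through negative-feedback and anergy genes. NAB1 and NAB2 are corepressors that bind EGR proteins and recruit the CHD4-NuRD complex, and *Nab2* is itself induced by EGR factors, which closes a feedback loop. NR4A1 (NUR77), NR4A2 and NR4A3 are orphan nuclear receptors induced through calcineurin, NFAT and MEF2, and they are widely used as reporters of receptor signal strength and are linked to tolerance and exhaustion.

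Promoter windows of 250 bases before to 50 bases after a transcript start were available from RefSeq for 6 members, and not for *Egr1* and *Egr3*. The upstream parts of 3 of these windows are shown because they belong to an EGR gene, an NR4A gene and the corepressor gene whose libraries lay farthest apart. Only bases outside annotated exons are printed, 5′ to 3′ on the strand of the gene, in GRCm38.p6. In *Egr2* (chr10:67537619-67537868, plus strand) the capitals mark a CArG box, the element bound by serum response factor. In *Nr4a1* (chr15:101266596-101266845, plus strand) they mark the EGR binding sequence GCGGGGGCG, which lies on the opposite strand. In *Nab2* (chr10:127666711-127666900, minus strand) they mark the hypoxia response core GCGTG, also on the opposite strand; *Nr4a1* holds the same core, not capitalized, at 218 and 210 bases upstream.

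Egr2: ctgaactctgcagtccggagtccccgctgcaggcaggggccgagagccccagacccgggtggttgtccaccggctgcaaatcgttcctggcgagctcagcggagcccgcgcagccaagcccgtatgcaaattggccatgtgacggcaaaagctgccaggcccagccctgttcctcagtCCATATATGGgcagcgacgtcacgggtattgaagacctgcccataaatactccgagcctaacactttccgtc
Nr4a1: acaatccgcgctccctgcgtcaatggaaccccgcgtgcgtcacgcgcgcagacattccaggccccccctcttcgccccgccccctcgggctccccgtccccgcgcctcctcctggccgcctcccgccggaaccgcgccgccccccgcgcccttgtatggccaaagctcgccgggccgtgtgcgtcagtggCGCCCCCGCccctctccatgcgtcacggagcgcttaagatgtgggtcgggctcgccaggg
Nab2: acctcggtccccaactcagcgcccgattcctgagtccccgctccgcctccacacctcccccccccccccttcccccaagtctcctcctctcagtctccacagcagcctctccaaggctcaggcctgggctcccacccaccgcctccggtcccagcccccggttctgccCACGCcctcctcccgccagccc

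The CArG box of *Egr2* began 72 bases before the transcript start at 67537869, and a CArG box was present in 1.63% of 32851 windows of all genes. Of the 5 *Egr2* windows, several overlap, and 4 held a CArG box. The *Nr4a1* match to GCGGGGGCG began 60 bases upstream of the start, and 2.91% of all windows held that sequence. *Nab1* held it once, 38 bases upstream, and held the other EGR sequence searched, GCGTGGGCG, at 141 and 109 bases upstream, where 0.612% of windows had a match. The shorter core GCGTG, which is also part of GCGTGGGCG, was found in 5 of the 6 members and in 32.4% of all windows. Counted as the members are, by any window of a gene, 9500 of 27025 genes held it. Its partner core ACGTG was found in 2 of 6 members, 19.6% of windows and 5886 genes. The NFAT core GGAAA was found in *Egr2* and *Nr4a2*, against 61.3% of all windows and 17417 genes. None of the 6 members held the CRE TGACGTCA, the ETS site CCGGAAG, the AP-1 site TGACTCA, the NR4A site AAAGGTCA or the ROR half-site AGGTCA in these windows, which were found in 1.79%, 8.86%, 5.20%, 1.51% and 16.3% of all windows. Both strands were searched in every case. All 10 windows of the members lay above the median of all windows in GC content, from 56.0% in a window of *Egr2* to 81.7% in *Nab1* and *Nr4a2*, with a median of 52.7% over all windows. They held 16 to 52 CpG pairs, beside a median of 7, and both hypoxia cores contain a CpG.

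Each library held 17659035 to 18510878 reads on genes, so that counting error was small for every member. Values are reads scaled by the authors with 1 factor per library, called normalized reads here. WT replicate 3 stood apart from the other WT libraries, with a median chi-square against them of 3.24 and 3.33 times what counting gives, compared with 1.34 to 1.57 among the other pairs of one genotype. It held the highest WT value in 6 of the 8 members, against 40.5% of genes tested, so each genotype difference of a member is also given without it. Th17 markers were abundant, with 6 of 6 markers detected and summed levels of 64570 to 69274 normalized reads in WT and 78795 to 80094 in N275D. All 5 CD4 T cell markers were detected, with sums of 27114 to 28872 in WT and 23159 to 23949 in N275D. B cell markers were low but differed, with 5 of 6 at a mean of at least 10 and sums of 163 to 173 in WT and 241 to 308 in N275D, and *Ms4a1* stayed below 10 in every library. Of 7 myeloid markers 3 reached a mean of 10, with sums of 94.9 to 119 in WT and 108 to 137 in N275D. Their members did not share a direction, with *Adgre1* at 19.2 to 25.5 in WT and 4.01 to 9.98 in N275D and *Cd14* at 8.07 to 15.1 and 22.1 to 24.0, and *Lyz2* and *Csf1r* stayed below 10. Markers of CD8 T or natural killer cells summed to 231 to 263 in WT and 335 to 373 in N275D, with 4 of 6 at a mean of at least 10. *Cd8b1*, *Klrk1* and *Eomes* were higher in every N275D library than in any WT library. *Cd8a* overlapped, at 25.2 to 38.3 in WT and 24.7 to 29.9 in N275D. *Klrb1c* was below 10 in every library and *Ncr1* was not analysed here. Of 5 gamma delta T cell markers 1 was analysed here, *Sox13*, at 18.2 to 31.4 in WT and 35.1 to 38.5 in N275D. The part of these cell types in the differences below was not tested, and in bulk libraries fewer cells of a type and less RNA per cell cannot be told apart.

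All 3 EGR activators had fewer reads in N275D than in WT Th17 cells. *Egr1* (chromosome 18) had 3416, 3729 and 4111 normalized reads in the WT libraries and 2419, 2245 and 2236 in the N275D libraries. The genotypes were well separated, and the WT libraries were spread more widely than the mutant ones. Its log2 fold change, N275D over WT throughout, was -0.70 (standard error, SE, 0.06), which is 0.614 times the WT level, and it was -0.63 without WT replicate 3. *Egr2* (chromosome 10, 67534469 to 67542188), whose CArG box is shown above, had 1180, 1341 and 1398 normalized reads in WT and 978, 957 and 1017 in N275D. It showed the smallest difference of the family, a log2 fold change of -0.40 (standard error 0.06), or -0.35 without WT replicate 3, and its lowest WT library still lay above every mutant library. *Egr3* (chromosome 14, 70077317 to 70082613) had 1585, 1573 and 1735 normalized reads in WT and 558, 567 and 546 in N275D. Here the N275D libraries agreed within a narrow range and reached 0.342 times the WT level, a log2 fold change of -1.55 (standard error 0.05), or -1.50 without WT replicate 3. Among the 11908 genes tested, *Egr3* had the 32nd lowest log2 fold change, *Egr1* the 222nd and *Egr2* the 752nd. The fourth family gene, *Egr4*, was low, with 19.2 to 26.2 normalized reads in WT and 4.99 to 12.8 in N275D. Its N275D mean of 9.29 was below the filter of 10, so that it entered the fit only through the WT libraries, and no test of it is given. *Wt1*, which has related zinc fingers, was not analysed here.

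**Figure D1:**
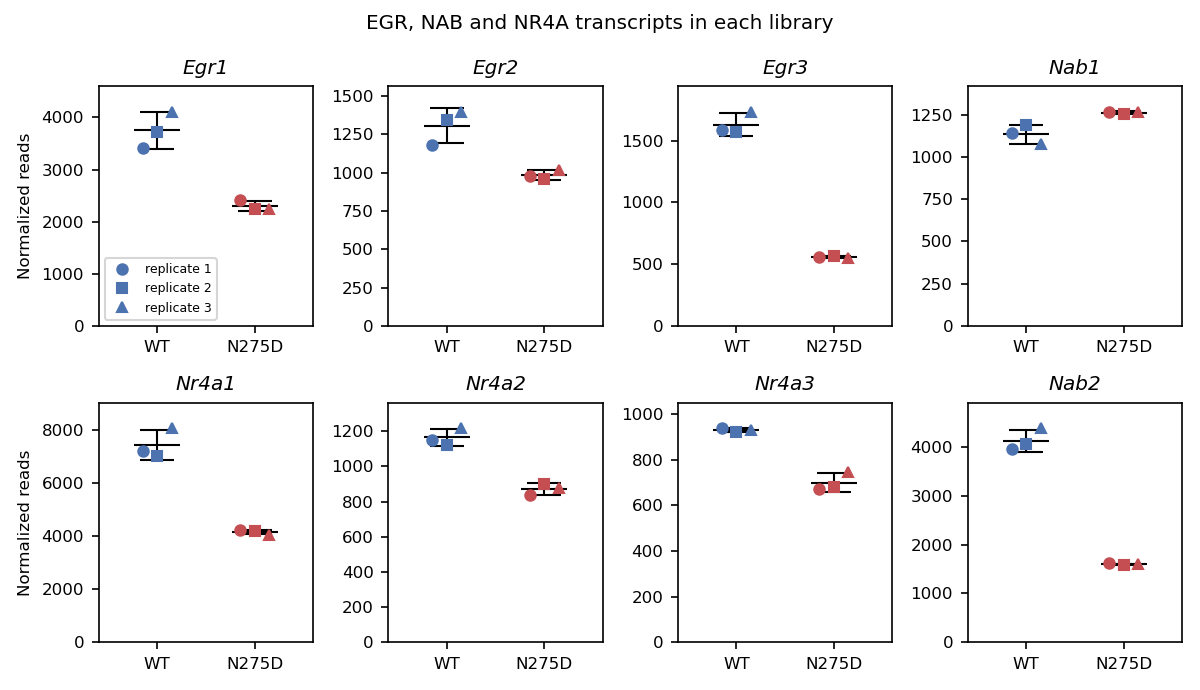
Normalized reads of each member (vertical axes, each starting at 0) in the 3 WT (blue) and 3 N275D (red) libraries, with marker shape for the replicate number and black lines for the mean and SD. In 7 panels the N275D libraries lie below all WT libraries and the *Nab1* panel shows them above; WT replicate 3 is the highest WT point in 6 panels.

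The corepressors differed in direction. *Nab2* (chromosome 10, 127660918 to 127666703) had 3946, 4049 and 4376 normalized reads in WT and 1613, 1587 and 1595 in N275D. The N275D libraries lay in a narrow range, far below the lowest WT library. The log2 fold change of *Nab2* was -1.37 (standard error 0.04), the 45th lowest of the genes tested, and -1.32 without WT replicate 3. *Nab1* (chromosome 1, 52455849 to 52500712), the only member with more reads in the mutant, had 1141, 1186 and 1076 normalized reads in WT and 1267, 1253 and 1264 in N275D. Its log2 fold change was 0.15 (standard error 0.05), and 0.12 without WT replicate 3, and all 3 mutant libraries lay above all 3 WT libraries. *Nab2* overlaps the end of *Stat6* on the opposite strand by 70 bases in RefSeq, and whether the counting used strand is not stated, although both the methods and the labels describe library kits that keep strand. *Stat6* had 4836 ± 91.8 normalized reads in WT and 4673 ± 59.0 in N275D (SD, n = 3 each), with a log2 difference of -0.05 (SE 0.04; limma adjusted p = 0.257). In GENCODE the whole span of *Nab2* also overlaps that of *Nemp1* by 1668 bases on the opposite strand. In RefSeq the 2 genes do not overlap, as *Nemp1* lies at 127677065 to 127701049. *Nemp1* had a log2 difference of -0.42 (SE 0.05, limma adjusted p = 2.47e-06).

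All 3 NR4A receptors were lower in N275D cells. *Nr4a1* (chromosome 15, 101253902 to 101274795) had 7229, 7048 and 8086 normalized reads in WT and 4235, 4205 and 4068 in N275D. The highest mutant library held well under the reads of the lowest WT library, and the log2 fold change was -0.84 (standard error 0.05), or -0.78 without WT replicate 3. *Nr4a2* (chromosome 2, 57106830 to 57124003) had 1153, 1124 and 1217 normalized reads in WT and 836, 901 and 876 in N275D, a log2 fold change of -0.42 (standard error 0.05). *Nr4a3* (chromosome 4, 48045078 to 48086447) had 938, 919 and 931 normalized reads in WT and 671, 679 and 747 in N275D, a log2 fold change of -0.41 (standard error 0.05). *Nr4a2* and *Nr4a3* thus had nearly the same difference, within 1 standard error of each other, and both were smaller than that of *Nr4a1*. Without WT replicate 3 they stood at -0.39 and -0.41. By rank from the lowest log2 fold change, *Nr4a1* was 152nd, *Nr4a2* 696th and *Nr4a3* 722nd of 11908.

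By the rule applied to all genes tested, an adjusted p under 0.05 from limma, 26.1% of genes were called lower and 24.7% higher, and the members on those sides of the rule numbered 7 and 1. At a minimum of 2-fold, 2 members, *Egr3* and *Nab2*, lay past it, both lower, where 3.59% of genes tested were called, 0.857% lower and 2.73% higher. The libraries of the genotypes did not overlap in any of the 8 members, as in 57.7% of all genes tested, and 7 of them lay lower in N275D without overlap, as did 29.6% of all genes tested. Because this contrast chose the members, these counts test nothing about them and are a description only. The median log2 fold change over the members was -0.56, and -0.52 without WT replicate 3, beside -0.00 over all genes tested. There was no threshold in the choice of members.

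**Figure D2:**
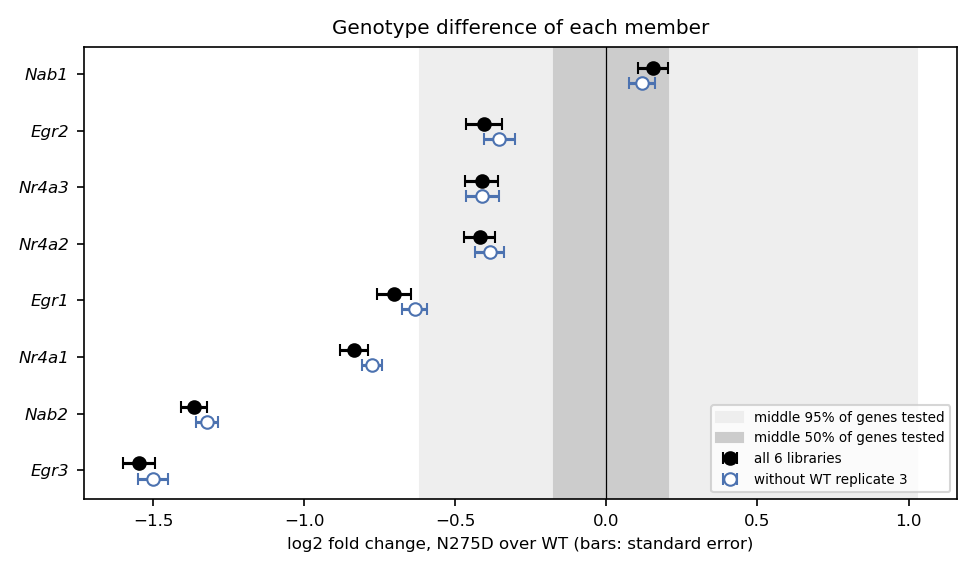
Log2 fold change of N275D over WT (horizontal axis) with its standard error for each member, from all 6 libraries (black) and without WT replicate 3 (blue, open), over bands holding the middle 50% and middle 95% of the genes tested. Egr3 at -1.55 and Nab2 at -1.37 lie farthest to the left and Nab1 at 0.15 is alone to the right of 0; leaving out WT replicate 3 brings every member closer to 0, Nr4a3 hardly at all.

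The spread between replicates was not used to choose the members. The SD of log2 values was larger among the WT than among the N275D libraries in 7 of 8 members, and in 64.2% of all genes tested. Without WT replicate 3 these were 4 of 8 members and 42.6% of genes, with fewer libraries in the WT SD than in the N275D SD. An SD from fewer libraries tends to be smaller, so 42.6% does not show a narrower spread in WT. The excess of larger SDs in WT was not seen without that library. *Egr1* (0.13), *Egr2* (0.13) and *Nr4a1* (0.11) varied most in WT, beside a median SD of 0.08 over all genes tested. Without WT replicate 3 the SD was 0.09 for *Egr1*, 0.13 for *Egr2* and 0.03 for *Nr4a1*. *Nr4a3* was the exception, with an SD of 0.01 in WT and 0.08 in N275D. Among the N275D libraries *Nab1* and *Nab2* had the narrowest spread, each with an SD of 0.01, beside a median of 0.06 over all genes tested.

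Levels were compared between genes per kilobase of annotated exon. In WT cells *Nr4a1* was the most abundant member at 2124 ± 158 normalized reads per kilobase, followed by *Nab2* at 1402 ± 76.3, *Egr1* at 837 ± 77.6, *Egr2* at 384 ± 33.2 and *Egr3* at 370 ± 20.5 (SD, n = 3 each). *Nr4a2* (287 ± 11.8), *Nab1* (277 ± 13.6) and *Nr4a3* (155 ± 1.59) completed the order on the same scale. The libraries of *Egr2* and *Egr3* overlapped, as did those of *Nr4a2* and *Nab1*, so those neighbours did not differ beyond their spread. Every member lay above the WT median of 127 normalized reads per kilobase over the 11577 genes tested with an exon length. In N275D cells *Nr4a1* (1188 ± 25.4) and *Nab2* (543 ± 4.57) were still followed by *Egr1* (513 ± 23.0), in normalized reads per kilobase. Below them the order was different, with *Nab1* (308 ± 1.79) above *Egr2* (290 ± 8.98) and *Nr4a2* (215 ± 8.12), and with *Egr3* (126 ± 2.36) and *Nr4a3* (117 ± 6.94) last and overlapping each other. *Egr3* thus went from the 77.1st to the 49.6th percentile of the genes tested with an exon length, and *Nr4a1* from the 97.0th to the 94.1st. *Nr4a3* went from the 55.4th to the 47.4th. Both *Egr3* and *Nr4a3* lay below the N275D median of 129 normalized reads per kilobase.

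**Figure D3:**
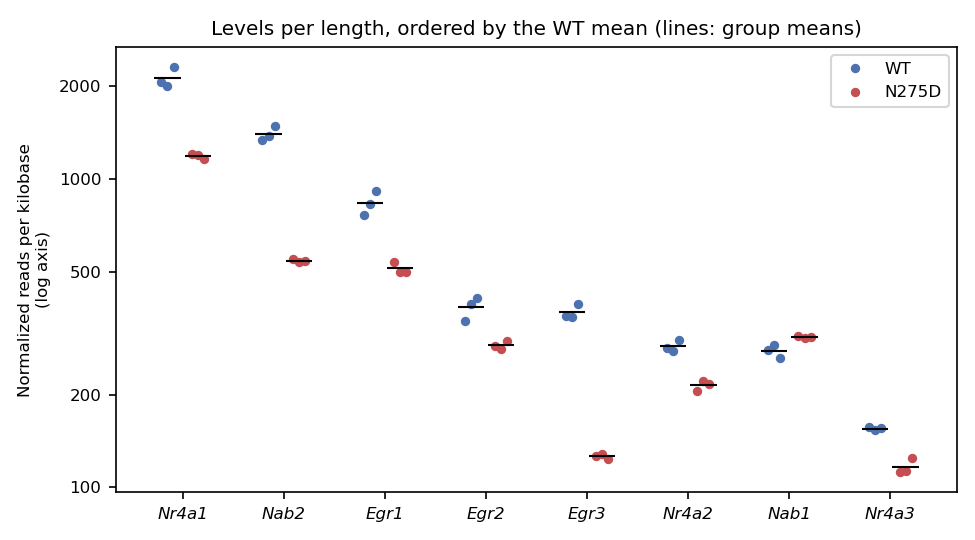
Normalized reads per kilobase of exon (vertical log axis) for each member in the 3 WT (blue) and 3 N275D (red) libraries, ordered by the WT mean, with black lines for the group means. Nr4a1 is highest in both genotypes, the gap between genotypes is widest for Egr3 and Nab2, and the 2 colours come closest for Nab1, the member with red above blue.

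The make-up of each family also differed between the genotypes. Summed over the 3 genes, EGR transcripts made up 1591 ± 127 normalized reads per kilobase in WT and 929 ± 22.4 in N275D (SD, n = 3 each). *Egr1* supplied 52.5% ± 0.689 of that sum in WT and 55.2% ± 1.25 in N275D (SD, n = 3 each). The share of *Egr2* was 24.2% ± 0.677 in WT and 31.2% ± 1.17 in N275D, and that of *Egr3* was 23.3% ± 1.04 and 13.6% ± 0.447 (SD, n = 3 each). The ratio of *Egr2* to *Egr3* per kilobase was therefore 1.04 ± 0.0702 in WT and 2.29 ± 0.114 in N275D (SD, n = 3 each), with no overlap between libraries. For the corepressors, the ratio of *Nab2* to *Nab1* per kilobase was 4.82, 4.76 and 5.67 in the WT libraries and 1.78, 1.77 and 1.76 in the N275D libraries. The sum of both NAB genes over the sum of the EGR genes was 1.06 ± 0.0435 in WT and 0.916 ± 0.0154 in N275D (SD, n = 3 each). *Nr4a1* supplied 82.7% ± 0.653 of NR4A transcripts in WT and 78.2% ± 0.929 in N275D (SD, n = 3 each), out of sums of 2566 ± 170 and 1519 ± 17.6 normalized reads per kilobase.

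The genes whose profile over the 6 libraries was most like that of *Egr3*, by the root mean square difference of log2 values centred on the WT mean, were *Chst2* (0.06), *Ccl3* (0.08) and *Npas4* (0.08), beside a median of 1.10 over all genes. *Chst2* encodes a sulfotransferase, *Ccl3* a chemokine and *Npas4* an activity-induced transcription factor. *Npas4* had 581, 601 and 686 normalized reads in WT and 192, 232 and 199 in N275D. Like *Egr3*, it was highest in WT replicate 3. Genes near *Egr3* or *Nr4a1* were picked by likeness over these same 6 libraries. Their genotype differences and replicate patterns were thus favoured by the choice and are a description only. The nearest profiles to *Nr4a1* were those of *Btg2* (0.03), *Gdpd5* (0.05) and *Pfkfb3* (0.05), beside a median of 0.60. *Btg2*, an antiproliferative early response gene, had 1643, 1636 and 1828 normalized reads in WT and 958, 1007 and 953 in N275D.

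All lists of genes below were chosen with earlier results of these data known, so their shares of calls test nothing about them. Genes of the ERK route to EGR induction, which encode the Ras-ERK cascade, its kinases and the serum response factor complex, were called about as often as all genes. Other routes to EGR induction are not covered by this list. Of 23 tested, 7 were called higher and 4 lower at an adjusted p under 0.05 by limma, which is 47.8% where 50.9% of all genes tested were called, and 12 did not pass. With a prior without a trend the calls were 4 higher and 3 lower. The list median was 0.02 on the log2 scale, beside -0.00 over all genes, and was -0.01 without WT replicate 1 and -0.02 without N275D replicate 1. *Map2k1*, the kinase MEK1 upstream of ERK, rose from 2427 ± 43.3 normalized reads in WT to 3427 ± 49.5 in N275D (SD, n = 3 each), with a log2 difference of 0.50 (SE 0.04; limma adjusted p = 2.55e-08). *Mapk3*, which encodes ERK1, had a log2 fold change of 0.35, and *Sos1*, a Ras exchange factor, had 0.23. *Creb1*, a factor that binds CRE elements, fell from 1386 ± 86.6 normalized reads in WT to 1038 ± 63.8 in N275D (SD, n = 3 each), with a log2 difference of -0.42 (SE 0.06; limma adjusted p = 1.73e-05). The GTPase gene *Hras* had a log2 fold change of -0.26, and its libraries did not overlap between the genotypes. *Srf*, named after its value was seen because it encodes the factor that binds the CArG box, had 2788 ± 200 and 2753 ± 30.8 normalized reads (SD, n = 3 each) and did not pass the test (adjusted p = 0.804 from limma).

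Among the genes that act on NR4A induction, some of which restrain it, 4 of 15 (26.7%) were called higher and 6 (40.0%) lower, against 24.7% and 26.1% of all genes. The list median was -0.04 on the log2 scale and 0.04 after quantile normalization. *Nfatc1*, a calcineurin-dependent factor that is itself induced by receptor signals, had 3189, 3399 and 3590 normalized reads in WT and 1648, 1611 and 1570 in N275D. It was the only gene of this list past 2-fold, with a log2 difference of -1.07 (SE 0.05; limma adjusted p = 2.64e-11), and -1.03 without WT replicate 3. *Nfatc2* had a log2 fold change of -0.34 and *Cabin1*, which restrains calcineurin and MEF2, had -0.30. As *Cabin1* is among the 6 called lower, that count is not one of inducers alone. The calcineurin catalytic subunit genes *Ppp3cc* (0.37) and *Ppp3ca* (0.25) and the low transcript *Mef2c* (0.62) were called higher. The call for *Ppp3ca* was lost without WT replicate 3, where its log2 fold change was 0.12.

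Of 15 tested genes for cofactors of these proteins, namely the CHD4-NuRD complex that NAB proteins recruit and the RXR partners of NR4A receptors, 9 (60.0%) were called lower and 1 (6.67%) higher, against 26.1% and 24.7% of all genes, with a median log2 fold change of -0.18. After quantile normalization 8 were called lower and 3 higher, with a median of -0.10. *Rxra*, one of the RXR partner genes, had 2187, 2082 and 2353 normalized reads in WT and 1015, 1108 and 1027 in N275D. Its log2 difference was -1.07 (SE 0.05; limma adjusted p = 1.22e-10), and -1.02 without WT replicate 3. The log2 fold changes of the NuRD genes ran from -0.28 for *Chd3*, with the histone-binding subunit *Rbbp4* at -0.24, to 0.32 for *Mta3*, the only one called higher. *Rxrb*, another RXR gene, named after its value was seen, had 1382 ± 152 normalized reads in WT and 1322 ± 50.3 in N275D (SD, n = 3 each). Its log2 difference was -0.06 (SE 0.06; limma adjusted p = 0.468), so the fall of *Rxra* was not shared by it. *Rxrg* was not analysed here.

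Genes linked to EGR factors in T cells changed in both directions. Of 21 tested, 10 (47.6%) were called higher and 8 (38.1%) lower, against 24.7% and 26.1% of all genes. These shares are a description only, as this list too was chosen with earlier results of these data known. The list median was -0.01 on the log2 scale, or 0.07 after quantile normalization. The cytokine genes *Il2* (-2.27) and *Tnf* (-0.99) and *Id3* (-1.16), which encodes an inhibitor of E proteins, had the largest falls in log2 fold change among them. *Tnf*, a cytokine gene bound by EGR factors together with NFAT, had 1940 ± 38.8 normalized reads in WT and 978 ± 4.86 in N275D (SD, n = 3 each; adjusted p = 3.09e-11 from limma). Increases were largest for *Tnfrsf9*, *Ndrg1* and *Cblb*, each past 2-fold. *Tnfrsf9*, the co-stimulatory receptor 4-1BB, had 666, 631 and 722 normalized reads in WT and 2591, 2476 and 2637 in N275D, with a log2 difference of 1.93 (SE 0.05; limma adjusted p = 1.42e-13). *Cblb*, a ubiquitin ligase that restrains receptor signalling and is linked to anergy, rose from 865 ± 36.3 normalized reads in WT to 1857 ± 61.9 in N275D (SD, n = 3 each), with a log2 difference of 1.10 (SE 0.05; limma adjusted p = 3.25e-11). The metabolic and hypoxia-responsive gene *Ndrg1* had a log2 fold change of 1.28.

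Of 15 genes linked to NR4A factors, 7 (46.7%) were called higher and 4 (26.7%) lower, against 24.7% and 26.1% of all genes, and the list median was 0.12. *Tox*, a factor of the exhaustion program, had a log2 fold change of -0.83 (standard error 0.08), and the checkpoint receptor genes *Pdcd1* and *Ctla4* had -0.80 and -0.24. *Pdcd1* fell from 4273 ± 129 normalized reads in WT to 2458 ± 92.5 in N275D (SD, n = 3 each; adjusted p = 2.30e-10 from limma). The low transcript *Entpd1*, which encodes CD39, rose past 2-fold, with a log2 difference of 1.26 (SE 0.16; limma adjusted p = 5.87e-06). *Havcr2*, which encodes TIM-3, had 10.1, 6.05 and 10.8 normalized reads in WT and 29.9, 31.1 and 21.7 in N275D. Its WT mean of 8.98 was below the filter of 10, so that it entered the fit only through the N275D libraries, and its difference is given with no test although it is counted among the 7. *Tigit* had a log2 fold change of 0.53. The checkpoint receptor genes of this list thus did not share a direction.

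Of 31 other immediate early activation genes, 18 (58.1%) were called lower and 10 (32.3%) higher, against 26.1% and 24.7% of all genes, with a list median of -0.24 on the log2 scale. This list was written with the lower values of such genes already known from these libraries. *Nfkbid*, an inhibitor-related regulator of NF-κB, fell from a WT mean of 1362 to an N275D mean of 656 ± 10.5 normalized reads (SD, n = 3), with a log2 difference of -1.05 (SE 0.05; limma adjusted p = 4.96e-11). *Fosl1* (-0.83) and *Btg2* (-0.81) were next on that scale. The higher genes included *Atf3*, a stress-induced factor, which rose from 287 ± 42.6 normalized reads in WT to 652 ± 31.3 in N275D (SD, n = 3 each), with a log2 difference of 1.19 (SE 0.09; limma adjusted p = 2.26e-08). *Dusp5*, a phosphatase that acts on ERK, and *Jun* had log2 fold changes of 0.75 and 0.60.

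**Figure D4:**
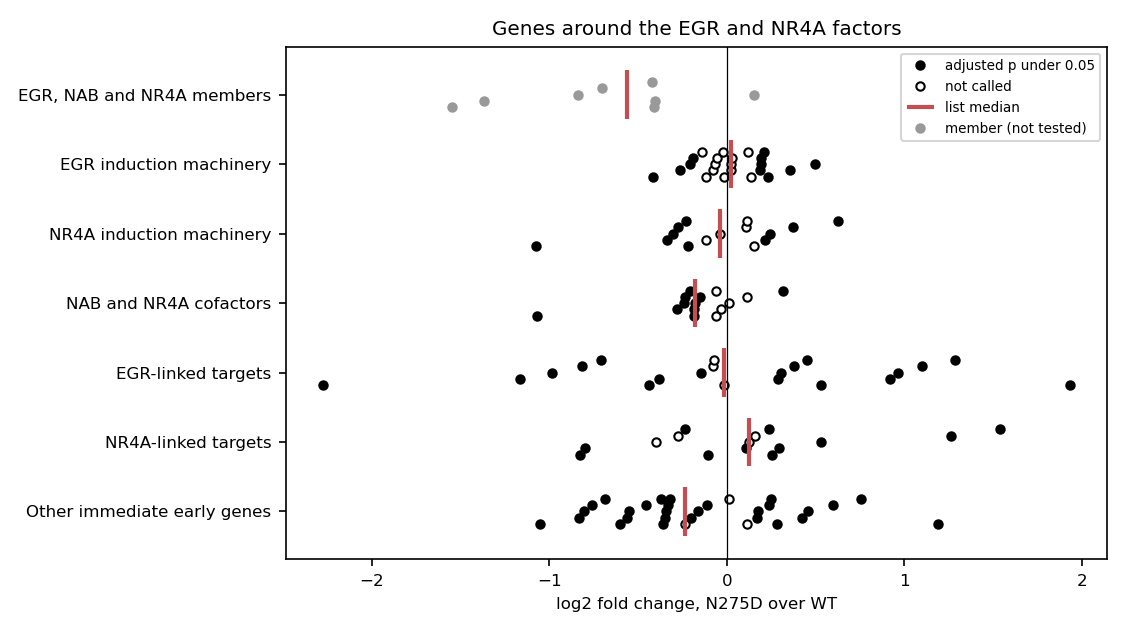
Log2 fold change of N275D over WT (horizontal axis) for the members (grey, not tested) and for each gene of the 6 lists, filled where the adjusted p from limma is under 0.05 and open where it is not, with a red bar at the median of each row. The members have a median of -0.56, the median of the other immediate early genes is -0.24, and the EGR-linked targets extend from -2.27 to 1.93.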

How the data were processed

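RNA-seq of 3 WT and 3 N275D Th17 libraries was used, grouped by their titles. Per the methods, the authors' pipeline used STAR against mm10, then featureCounts per gene and DESeq2; the methods name DNBSEQ strand-specific libraries and the labels a NEBNext directional kit, and whether counting used strand is not stated in the sources used here. The deposited signal is the authors' reads per gene scaled by 1 factor per library, since 100% of values were whole multiples of it within 1e-06. The deposited table also holds group averages, log2 fold changes and q-values (p-values) of the authors, which were not used.

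Genes averaging 10 or more normalized reads (11908) were fitted as log2(normalized reads + 1) with limma (version 3.58.1, R 4.3.3), with a trended prior and Benjamini-Hochberg adjustment. Members and lists were chosen with earlier results of these data known. From each list the 3 largest called changes a direction and all calls at 2-fold were named, with the 3 genes nearest in profile to *Egr3* and to *Nr4a1*, *Egr4*, *Wt1* and genes overlapping a member; some genes this rule covers are not reported here. Coordinates and promoters are from RefSeq (GRCm38.p6, the build mm10), where 16135 of 16244 genes matched by gene number, and exon lengths are from GENCODE M21. Alternatives were other pseudocounts, filters, scalings and priors, a replicate block and each library left out.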

Additional observations from a re-analysis of the deposited data

How the results depend on the processing

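Over the 14 alternatives run, the log2 fold change of *Egr3* ranged from -1.57 to -1.50, *Nab2* from -1.40 to -1.30, *Nr4a1* from -0.87 to -0.77, *Egr1* from -0.77 to -0.63, *Egr2* from -0.48 to -0.35, *Nr4a2* from -0.44 to -0.39, *Nr4a3* from -0.46 to -0.38 and *Nab1* from 0.12 to 0.19. The order of levels per kilobase was the same under TMM and quantile scaling in both genotypes (8 of 8 members at the same rank). The count of genes past 2-fold, 427, was 259 with a pseudocount of 10, 703 with every gene with a mean above 0 and 162 with a mean of at least 100, settings that shrink low genes or change how many are tested. Quantile normalization lowered the share of higher genes among those past 2-fold from 76.1% to 61.4%, and gave the EGR-linked and NR4A induction lists medians of 0.07 and 0.04, of opposite sign to -0.01 and -0.04. The EGR induction median, 0.02, was -0.01 without WT replicate 1 and -0.02 without N275D replicate 1, and the cofactor median, -0.18, was -0.10 under quantile normalization. Without WT replicate 3, an alternative for the spread chosen after seeing the data, 4 members in place of 7 had a larger SD in WT. There the WT SD rested on fewer libraries than the N275D SD. The EGR induction list had 7 calls in eBayes without a trend, against 11, and the cause was not tested. Among single genes named from the lists, *Ppp3ca* lost its call in 7 alternatives and *Sos1* in 2.

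Deviations of same-numbered WT and N275D libraries were nearly uncorrelated (r = -0.05, 0.04 and -0.08 across genes), and those of differently numbered libraries reached 0.09. With 3 libraries a genotype, these values cannot decide whether the numbers pair the samples. With the replicate block, 5727 genes were called in place of 6056 and 428 in place of 427 at 2-fold, and the counts of the 6 lists did not move. edgeR and DESeq2 on recovered reads were not run. At 3 libraries against 3, exact permutation (two-sided) can reach no p smaller than 0.1 for any gene alone.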
